A study of Mus musculus with 12 samples.

Results

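The genes described here are 8 genes grouped under butyrate uptake, fat oxidation and the making of ketone bodies, a part of these pathways and not the whole. They are Slc16a1, Slc16a9, Slc5a8, Acads, Cpt1a, Pdk4, Acat1 and Bdh1, and each was found in the deposited table by the Ensembl identifier that GENCODE M21 pairs with its symbol. They are 8 of 53715 gene rows, and all 8 passed the filter on low counts, which was run over the 4 groups together. Slc16a9, with 0 to 66 counts in the ileal libraries, passed through its colonic libraries, so its direction between the tissues is not independent of the filter. The 12 libraries were made from mucosal RNA of male C57BL/6J mice aged 8 weeks, and each of the 4 groups (ileum or colon, control or Slc39a8-IEC KO) had 3 mice. The labels give the control genotype as Slc39a8-fl/fl and the KO genotype as Slc39a8-fl/fl:Villin-Cre, so that the floxed allele is shared by every group, although the study's methods also count wild-type and Villin-Cre animals among the controls. Slc39a8 encodes a metal-ion transporter, and the Villin promoter drives Cre in intestinal epithelial cells, leaving the other cells of the mucosa with the intact gene. The labels do not say whether an ileal and a colonic library came from the same mouse.

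Butyrate is made by bacteria in the colon and is a main fuel of the cells that line it. It enters the cell on monocarboxylate transporters, is activated to butyryl-CoA and is oxidized in the mitochondria, where the acetyl-CoA formed can enter the citric acid cycle or be condensed into ketone bodies. Long-chain fatty acids reach the same pathway by way of carnitine, and the pyruvate dehydrogenase kinases hold back the competing entry of pyruvate. Several genes of these steps are known targets of the peroxisome proliferator-activated receptors, a family of nuclear receptors that bind fatty acids.

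The upstream sequences of 3 of the genes are shown because they stand for the contrasting regional patterns described below: Slc16a1 was higher in colon, Slc5a8 was higher in ileum, and Pdk4 was nearly absent from ileum. They were taken from RefSeq for build GRCm38.p6 and are written 5′ to 3′ on the strand of the gene, ending at the transcript start or, for Pdk4, where the annotated gene begins, which left out 31 bases. The stretches are chr3:104638414-104638663 on the plus strand for Slc16a1, chr10:88885742-88885991 on the plus strand for Slc5a8 and chr6:5496310-5496528 on the minus strand for Pdk4. Capitals mark matches, on either strand, to the GC box letters GGGCGG or the CCAAT box letters CCAAT.
Slc16a1: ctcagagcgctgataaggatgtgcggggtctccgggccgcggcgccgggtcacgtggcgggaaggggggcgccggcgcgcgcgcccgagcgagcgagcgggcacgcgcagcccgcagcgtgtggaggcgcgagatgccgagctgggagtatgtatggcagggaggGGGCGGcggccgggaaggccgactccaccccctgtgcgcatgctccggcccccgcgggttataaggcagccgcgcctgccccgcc
Slc5a8: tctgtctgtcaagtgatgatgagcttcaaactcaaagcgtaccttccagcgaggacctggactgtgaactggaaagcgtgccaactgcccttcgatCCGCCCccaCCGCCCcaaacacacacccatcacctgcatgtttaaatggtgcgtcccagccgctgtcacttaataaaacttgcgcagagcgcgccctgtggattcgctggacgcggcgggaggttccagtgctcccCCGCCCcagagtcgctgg
Pdk4: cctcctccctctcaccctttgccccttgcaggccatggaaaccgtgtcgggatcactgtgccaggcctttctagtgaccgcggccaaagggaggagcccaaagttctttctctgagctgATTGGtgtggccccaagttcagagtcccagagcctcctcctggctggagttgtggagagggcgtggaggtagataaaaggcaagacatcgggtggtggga
The Slc16a1 stretch holds 1 GC box, that of Slc5a8 holds 3 on the opposite strand, and that of Pdk4 holds 1 CCAAT box on the opposite strand and no GC box. RefSeq promoters were at hand for 7 of the 8 genes, and Acat1 had no entry. Over the 250 bases before the RefSeq start, 5 of the 7 genes (Slc16a1, Slc16a9, Slc5a8, Acads and Cpt1a) hold a GC box, against 32.7% of 32851 promoters of the same length, and 2 (Cpt1a and Pdk4) hold a CCAAT box, against 33.8%. RefSeq and GENCODE starts differ, however: 176 bases of the Slc16a9 window lie inside the GENCODE gene, with all of its GC boxes and 0 in the 74 bases before it, and the Cpt1a window lies wholly inside its gene. The nuclear receptor half-site AGGTCA was found for Cpt1a alone, against 14% of promoters, and the direct repeat of this half-site with 1 base between the copies (DR1), which contains it, for 0 of the 7, against 0.0335%. The letters TATAAA were found for 0 of the 7, against 12.4%. These matches are descriptions of letters in a short window, and genes that differ in opposite directions between the tissues share the GC box.

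The libraries held between 16749138 and 27903083 expected counts, and levels are given as CPM, the count relative to the TMM-scaled size of the library. Slc39a8, the targeted gene, was lower in every KO library than in any control library of the same tissue, at 2.62 to 4.35 against 5.22 to 8.39 CPM in ileum and 7.35 to 11.5 against 20.1 to 20.8 CPM in colon. Markers of ileal enterocytes (Fabp6, Slc10a2, Apoa1 and Alpi) summed to 12367 to 16726 CPM in ileum and 636.8 to 966.5 CPM in colon, and markers of colonocytes (Car1, Car4, Aqp8 and Slc26a3) to 15868 to 28355 CPM in colon. In ileum the colonocyte sum was 231 to 635 CPM in 5 libraries and 3094 CPM in ileum KO replicate 2. The smooth muscle sum (Acta2, Myh11, Des, Tagln, Cnn1 and Actg2) was 34.2 CPM in ileum control replicate 3 and 20.2 CPM in ileum KO replicate 1, against 1814 to 2643 CPM in the other 4 ileal libraries and 2536 to 3954 CPM in colon. The epithelial sum (Epcam, Cdh1, Vil1, Krt8, Krt18, Krt20 and Cdx2) was 16105 to 20762 CPM in ileum and 8144 to 9326 CPM in colon, so the tissues also differed in the abundance of these epithelial transcripts. Leukocyte markers summed to 59.5 to 73.3 CPM in ileum and 15.8 to 27.89 CPM in colon, adipocyte markers to between 38.6 and 91.1 CPM, endothelial markers to between 3.79 and 16.1 CPM and red blood cell markers to between 20.9 and 283.5 CPM over the 12 libraries.

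All 8 genes differed between colon and ileum in control mice, 7 of them higher in colon and Slc5a8 lower. Among these, Slc16a9 passed the filter on low counts through its colonic libraries, so its call is not independent of the filter. In KO mice the same 7 genes were higher and Slc5a8 was again lower, but both contrasts came from 1 model with a shared filter and estimate of the spread, so these calls are not independent of each other. Slc16a9 and Pdk4 were close to absent from ileum, Acads, Cpt1a and Slc16a1 were between 2 and 3 times higher in colon, and Acat1 and Bdh1 differed by less than 2 times. The test was edgeR's quasi-likelihood test with Benjamini-Hochberg adjustment over 16558 genes and a threshold of 0.1. By this rule 35.9% of all genes were called in control mice (16.2% higher and 19.6% lower in colon) and 37.1% in KO mice (17.1% higher and 20.0% lower), so a call between the tissues was common. The median log2 fold change of the 8 genes was 1.32 in control mice, beside 0.02 over all genes tested, and 1.20 in KO mice, beside 0.01. In mucosal RNA, more cells of a type and more RNA per cell cannot be told apart.

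**Figure D1:**
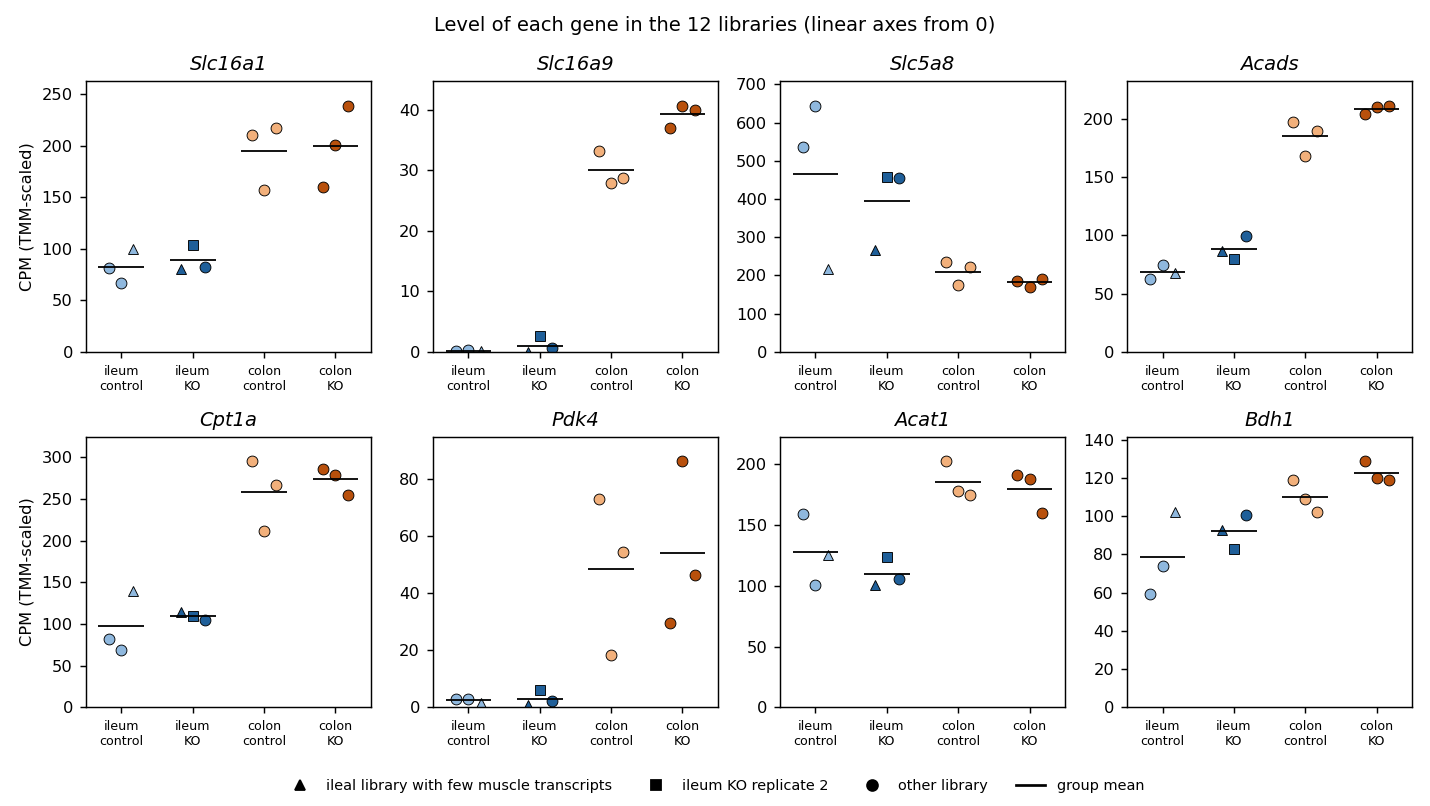
Level of each of the 8 genes in CPM (linear axes from 0) in the 12 libraries by tissue and genotype, with horizontal lines at the group means, triangles for the 2 ileal libraries with few muscle transcripts and squares for ileum KO replicate 2. Colonic libraries lie above all ileal libraries for Slc16a1, Slc16a9, Acads, Cpt1a, Pdk4 and Acat1, and for Slc5a8 the 2 triangles are the lowest ileal points.

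Slc16a1 encodes MCT1, a proton-coupled carrier of lactate, pyruvate, butyrate and ketone bodies (chr3:104638668-104658462 in GRCm38, plus strand). Its level in ileum was 81.1, 66.4 and 99.7 CPM in the control libraries and 80.4, 104 and 82.1 CPM in the KO libraries. In colon it was 210.5, 157 and 217 CPM in control and 160.3, 200.3 and 239 CPM in KO libraries. Every colonic library thus lay above every ileal one. The colon was 2.36-fold higher in control mice (log2 fold change 1.24, SE 0.20, edgeR adjusted p = 0.000856) and 2.25-fold higher in KO mice (1.17, SE 0.20, edgeR adjusted p = 0.00125).

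Slc16a9 encodes MCT9, a carnitine exporter of the same family (chr10:70245100-70285968, plus strand). The ileal control libraries held 3, 6 and 3 counts of it and the ileal KO libraries 0, 66 and 12 counts, which is 0.128 to 0.333 CPM and 0 to 2.58 CPM. The colonic libraries held 33.1, 28.0 and 28.8 CPM in control and 36.9, 40.7 and 40.0 CPM in KO mice, far above any ileal library. Pooled over the control libraries, 1841 colonic counts against 12 ileal counts gave a ratio of levels of 140.8 (exact 95% interval 80.4 to 272.9, counting error only). Pooled over the KO libraries, 2533 against 78 counts gave 31.9 (25.5 to 40.5), and 66 of the 78 ileal counts came from ileum KO replicate 2. The fitted log2 fold change was 7.09 (SE 0.87, edgeR adjusted p = 0.000112) in control mice and 5.12 (SE 0.72, edgeR adjusted p = 0.0003) in KO mice, and the latter became 6.96 without ileum KO replicate 2. As Slc16a9 passed the filter on low counts through its colonic libraries, these p-values are not independent of the filter. The strand setting of the counting is not known here, and Slc16a9 shares exon bases with the antisense gene Gm7097 and the pseudogene Gm9877, whose own totals over the 12 libraries were 0 and 4.21 expected counts.

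Slc5a8 encodes SMCT1, the sodium-coupled carrier that brings butyrate and other monocarboxylates in across the apical membrane (chr10:88885992-88929515, plus strand). Its level was 536.5, 644 and 217 CPM in the ileal control libraries and 266, 459 and 456 CPM in the ileal KO libraries. The colonic libraries held 235, 174 and 221 CPM in control and 185, 171 and 189.6 CPM in KO mice. It was the only member of the 8 that was lower in colon, at 0.45 times the ileal level in control mice (log2 fold change -1.15, SE 0.34, edgeR adjusted p = 0.0253) and 0.46 times in KO mice (-1.12, SE 0.34, edgeR adjusted p = 0.029). The control groups overlapped, because ileum control replicate 3, at 217 CPM, lay below 2 of the 3 colonic control libraries. That library and ileum KO replicate 1, the lowest ileal libraries for Slc5a8, are the 2 with few muscle transcripts. Without these 2 libraries the log2 fold change was -1.51 in control mice (SE 0.16, edgeR adjusted p = 1.93e-05). In KO mice it was then -1.32 (SE 0.16, edgeR adjusted p = 5.95e-05). The cause of the lower Slc5a8 in these 2 libraries was not tested. The log2 fold change was -1.51 without ileum control replicate 3 and -0.85 without ileum control replicate 2 in control mice, with adjusted p-values up to 0.0986 over the alternatives.

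Acads encodes the short-chain acyl-CoA dehydrogenase, which carries out the first oxidation of butyryl-CoA in the mitochondria (chr5:115110299-115119346, minus strand). The ileal control libraries held 62.5, 74.4 and 67.7 CPM and the ileal KO libraries 86.3, 79.6 and 99.7 CPM. The colonic control libraries held 197, 169 and 189.7 CPM and the colonic KO libraries 204, 211 and 211 CPM. The spread within groups was small, and the lowest colonic library was above the highest ileal one. The colon was 2.71-fold higher in control mice (log2 fold change 1.44, SE 0.12, edgeR adjusted p = 7.28e-06) and 2.36-fold higher in KO mice (1.24, SE 0.12, edgeR adjusted p = 2.2e-05), the smallest SE among the 8 genes.

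Cpt1a encodes the carnitine palmitoyltransferase that commits long-chain fatty acids to the mitochondria (chr19:3322334-3385733, plus strand). Its level was 82.5, 69.3 and 140.0 CPM in ileal control and 115, 109 and 105 CPM in ileal KO libraries. In colon it was 295, 212 and 267 CPM in control and 286, 279.5 and 255 CPM in KO libraries. The highest ileal value was in ileum control replicate 3, which has few muscle transcripts, yet all 6 colonic libraries were higher. The colon was 2.65-fold higher in control mice (log2 fold change 1.41, SE 0.23, edgeR adjusted p = 0.000836) and 2.5-fold higher in KO mice (1.32, SE 0.23, edgeR adjusted p = 0.00127).

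Pdk4 encodes a pyruvate dehydrogenase kinase, which switches pyruvate dehydrogenase off when fat is the fuel (chr6:5483351-5496309, minus strand). Ileal control libraries held 2.80, 3.06 and 1.61 CPM and ileal KO libraries 0.775, 5.98 and 2.23 CPM. Colonic control libraries held 73.0, 18.4 and 54.6 CPM and colonic KO libraries 29.7, 86.2 and 46.5 CPM. It was the most variable of the 8 genes within colon, with control libraries from 18.4 to 73.0 CPM, and still no colonic library came near the ileal ones. The log2 fold change was 4.30 in control mice (19.7-fold, SE 0.73, edgeR adjusted p = 0.00107) and 4.13 in KO mice (17.6-fold, SE 0.71, edgeR adjusted p = 0.0012). Without ileum KO replicate 2, the highest ileal library, the latter became 5.13.

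Acat1 encodes the mitochondrial acetoacetyl-CoA thiolase, which works at both ends of ketone body metabolism (chr9:53580522-53610382, minus strand). Its level was 159, 101 and 125 CPM in ileal control and 100.3, 124 and 105 CPM in ileal KO libraries. In colon it was 202, 178 and 175 CPM in control and 191, 188 and 160.1 CPM in KO libraries. The 2 tissues came close at 159 CPM in ileum and 160.1 CPM in colon but did not overlap. The colon was 1.45-fold higher in control mice (log2 fold change 0.53, SE 0.17, edgeR adjusted p = 0.033) and 1.63-fold higher in KO mice (0.71, SE 0.17, edgeR adjusted p = 0.00811). In control mice the call was lost without ileum control replicate 2 (0.38) and without colon control replicate 1 (0.46).

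Bdh1 encodes the dehydrogenase that converts acetoacetate to beta-hydroxybutyrate and back (chr16:31422280-31458901, plus strand). Its level was 59.4, 73.8 and 102.4 CPM in ileal control and 93.0, 82.9 and 100.5 CPM in ileal KO libraries. In colon it was 119, 109 and 102.2 CPM in control and 129, 120.1 and 119 CPM in KO libraries. The control groups overlapped at 102 CPM through ileum control replicate 3, one of the 2 libraries with few muscle transcripts, and the KO groups did not. The colon was 1.40-fold higher in control mice (log2 fold change 0.49, SE 0.17, edgeR adjusted p = 0.0553) and 1.33-fold higher in KO mice (0.41, SE 0.17, edgeR adjusted p = 0.0956). This was the least secure of the 8 calls, lost in 6 of 22 alternatives in control mice and in 12 of 22 in KO mice. With 1 library left out its log2 fold change in control mice ran from 0.32 to 0.71, and without the 2 libraries with few muscle transcripts it was 0.71 in control (edgeR adjusted p = 0.0027) and 0.43 in KO mice (edgeR adjusted p = 0.0357). Bdh1 shares exon bases with the antisense gene Gm15743, which had 166 expected counts in all.

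**Figure D2:**
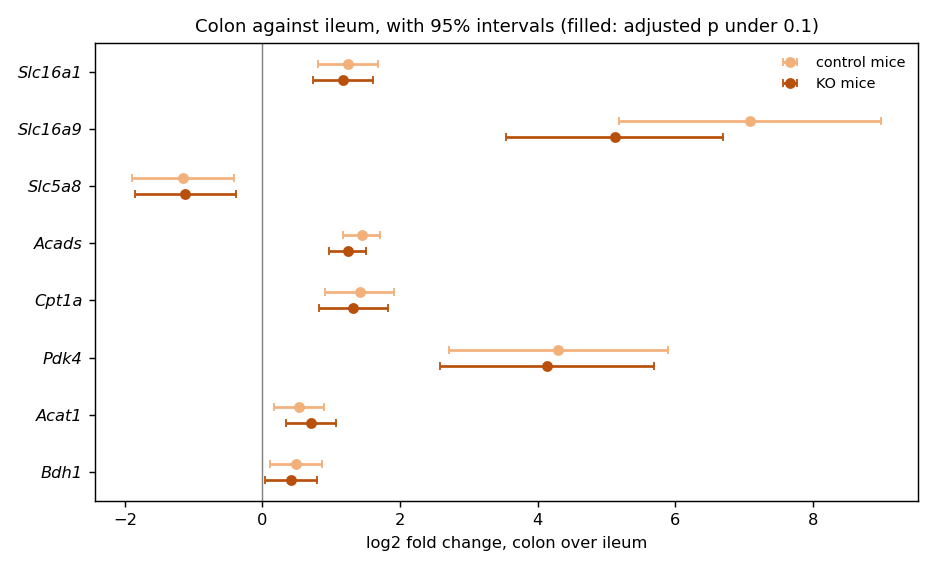
Log2 fold change of colon over ileum for the 8 genes (x axis) in control and KO mice, with 95% intervals from edgeR and filled points for adjusted p under 0.1. Slc16a9 and Pdk4 lie at 4 or more, 5 genes between 0.41 and 1.44, and Slc5a8 alone to the left of 0.

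For 6 of the 8 genes (Slc16a1, Slc16a9, Acads, Cpt1a, Pdk4 and Acat1) the 6 colonic libraries did not overlap the 6 ileal ones, each with the smallest value that the two-sided exact permutation test over 924 arrangements allows, p = 0.00216. The value of Slc16a9 is not independent of the filter on low counts, which it passed through its colonic libraries. For Bdh1 the exact p was 0.00433 and for Slc5a8 0.00649, both with overlap. Groups of 6 against 6 did not overlap for 28.2% of all genes. These tests treat the libraries as independent. The regional difference itself was compared between genotypes by the interaction term, and 0 of the 8 genes passed, with log2 differences between -0.20 and 0.18 for the 7 genes other than Slc16a9.

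Per kilobase of merged exons, the scale on which genes can be compared, Slc5a8 had the highest level of the 8 genes in ileum, at 87.4 CPM per kb in control and 73.8 in KO mice, and Acads had the highest level in colon, at 81.6 and 92.0 CPM per kb. The neighbours of Slc5a8 in ileal control mice were Acat1 at 34.1 and Acads at 30.1 CPM per kb, and the libraries of Slc5a8 (40.7 to 120.8) overlapped with those of Acat1 (26.9 to 42.2), which overlapped with those of Acads (27.5 to 32.8). Below these, and without overlap with Acads, came Bdh1 (20.2), Slc16a1 (18.6) and Cpt1a (12.7), whose ranges of 15.3 to 26.3, 15.0 to 22.5 and 9.06 to 18.3 also ran into each other. Pdk4 (0.709) and Slc16a9 (0.0569) were last in ileal control mice, and their ranges of 0.460 to 0.870 and 0.0330 to 0.0861 overlapped with no other. In colonic control mice Acads, with libraries at 74.3 to 86.9 CPM per kb, stood clear of Acat1 (49.3, range 46.5 to 53.9). Slc16a1 (44.0), Slc5a8 (39.3), Cpt1a (33.8) and Bdh1 (28.3) followed, each overlapping with the next, and Pdk4 (13.9) and Slc16a9 (7.74) were again last but overlapped with each other. The place of Cpt1a depends on the length used: over its longest transcript its level in colonic control mice was 59.8 CPM per kb, second to Acads at 91.5.

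The other genes of the pathway were read from 9 lists of 87 genes in all, of which 80 were tested. In control mice 27 were higher and 17 lower in colon, and in KO mice 27 were higher and 18 lower. Over all genes tested, 16.2% were higher and 19.6% lower in control mice, and 17.1% and 20.0% in KO mice. The counts of the single lists below are to be read against these shares. Without the 8 genes, 20 of 72 were higher and 16 lower in control mice, with a median log2 fold change of 0.20 beside 0.02 over all genes. Scaled by library size alone, the calls among the 80 were 37 higher and 15 lower in control and 43 higher and 13 lower in KO mice, while over all genes the same scaling gave 4156 higher and 2102 lower in control and 4637 and 1908 in KO mice.

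Of 6 ketone body genes on the list, Acat1 and Bdh1 were higher in colon and Oxct1 and Aacs lower, in both genotypes. Oxct1, the transferase that tissues need to burn ketone bodies, was lower in colon, at 304 to 392 CPM in ileal and 131 to 152 CPM in colonic control libraries (-1.30, SE 0.16, edgeR adjusted p = 0.000102). Aacs, which activates acetoacetate for lipid synthesis in the cytosol, was lower too (-0.81, SE 0.17, edgeR adjusted p = 0.00417). The 2 genes of ketone body use were thus higher in ileum, while Acat1 and Bdh1, which serve both directions, were higher in colon.

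Among the monocarboxylate transporters and their partners, 4 of 14 were higher in colon (Slc16a9, Slc16a1, Slc16a7 and Bsg) and 5 lower (Slc5a12, Slc16a10, Slc16a3, Slc16a6 and Slc5a8), in both genotypes. Bsg, the chaperone that MCT1 needs to reach the membrane, rose from 585.6 ± 52.4 to 884 ± 65.5 CPM in control mice (SD, n = 3; log2 fold change 0.59, SE 0.15, edgeR adjusted p = 0.0102). Slc5a12, the low-affinity relative of Slc5a8, had 23.4 to 48.5 CPM in the ileal libraries and 0 counts in all 6 colonic ones. Slc16a3, the lactate exporter MCT4, fell from 46.0 ± 13.8 to 5.0 ± 1.37 CPM (-3.20, SE 0.30, edgeR adjusted p = 1.57e-05). Slc16a10, an aromatic amino acid carrier of the same family, fell from 79.0 ± 21.8 to 3.96 ± 0.84 CPM (-4.32, SE 0.39, edgeR adjusted p = 1.09e-05). Both sodium-coupled carriers were therefore lower in colon, and the proton-coupled family was split.

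Of 16 genes of mitochondrial beta-oxidation, 6 were higher in colon in control mice (Acads, Hadhb, Eci1, Acaa2, Acadvl and Etfa) and 0 lower, and in KO mice 7 were higher (Acads, Acadsb, Hadhb, Acaa2, Eci1, Acadvl and Echs1) and 0 lower. The 5 other than Acads had log2 fold changes of 0.39 to 0.63 in control mice, below the 1.44 of Acads. Acadm, the medium-chain counterpart of Acads, stood at 148 ± 33.0 CPM in ileum and 142 ± 11.7 CPM in colon (-0.06, SE 0.16, edgeR adjusted p = 0.806). Of 8 genes of the carnitine shuttle, Slc25a20, the carnitine-acylcarnitine carrier of the inner membrane, and Cpt1a were higher in colon, while Crot, the peroxisomal octanoyltransferase, and Slc22a5, the plasma membrane carnitine importer, were lower, in both genotypes. Slc25a20 rose from 72.0 ± 10.8 to 228 ± 14.6 CPM in control mice (1.66, SE 0.13, edgeR adjusted p = 2.87e-06).

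Of the 14 genes of pyruvate dehydrogenase and its regulators, 6 were higher in colon in control mice (Pdk4, Pdpr, Dlat, Mpc1, Pdhb and Pdk1) and 3 lower (Pdp2, Pdk3 and Pdk2), with 5 and 3 in KO mice. The 4 kinases did not go one way: beside the 4.30 of Pdk4, the log2 fold changes were 0.37 for Pdk1, -0.71 for Pdk2 and -0.98 for Pdk3. Of 5 short- and medium-chain acyl-CoA synthetases tested, Acsm3, which can activate butyrate, was higher in colon (20.6 ± 12.2 against 79.0 ± 8.99 CPM in control mice; 1.94, SE 0.45, edgeR adjusted p = 0.00775) and Acsm5 was lower, with mean levels below 1 CPM in every group. Of 3 receptors tested, 0 were called in control mice and Ffar2, a receptor for short-chain fatty acids, was higher in KO colon (0.75, SE 0.29, edgeR adjusted p = 0.0746), and Hcar2 did not pass the filter. A difference between genotypes in the regional pattern of Ffar2 was not called either.

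Among 8 transcription factors and coactivators of fat oxidation, 3 were higher in colon in control mice (Pparg, Ppargc1b and Ppard) and 2 lower (Hnf4a and Rxra), with 4 and 3 in KO mice. Pparg, a lipid-sensing nuclear receptor, had 11.4 to 16.3 CPM in ileal and 148 to 193 CPM in colonic control libraries (log2 fold change 3.73, SE 0.42, edgeR adjusted p = 5.98e-05). Pparg also marks adipocytes, whose 6 markers summed to 38.6 to 76.0 CPM in ileal and 41.2 to 91.1 CPM in colonic control libraries. Of 10 PPAR-alpha target genes tested, 5 were higher in colon in control mice (Pdk4, Acot2, Acot1, Cpt1a and Plin2) and 2 were lower, Vnn1 (-3.08, SE 0.39) and Angptl4 (-2.81, SE 0.55), with 3 and 2 in KO mice.

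**Figure D3:**
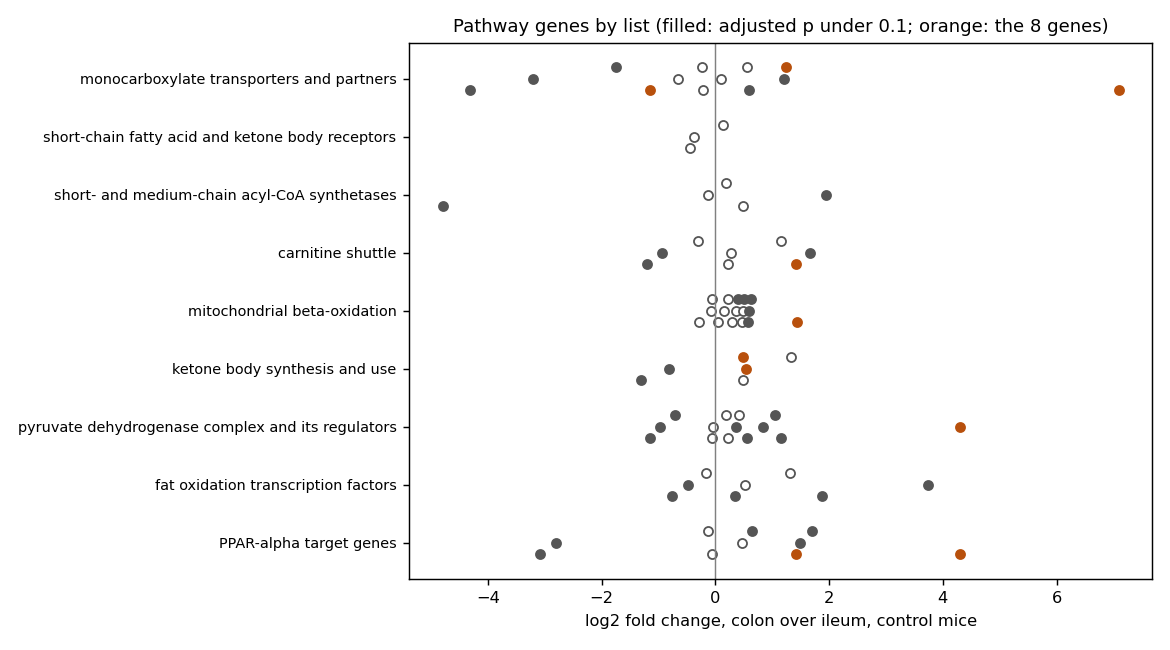
Log2 fold change of colon over ileum in control mice (x axis) for each tested gene of the 9 pathway lists (rows), filled where edgeR's adjusted p was under 0.1 and orange for the 8 genes. Slc5a12, with 0 counts in colon, is not drawn. Beta-oxidation genes have filled points on the right of 0 only, and transporters lie on both sides.

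None of the 8 genes passed the threshold between KO and control mice, over both tissues, in ileum, in colon or in the difference between the tissues, and neither did any other gene of the pathway. At the threshold, edgeR called 0% of genes (0 of 16558) in each of these 4 comparisons. The targeted gene Slc39a8 was itself not called, at log2 fold changes of -1.13 over both tissues, -1.05 in ileum and -1.2 in colon. A missing call therefore does not show that a gene was unchanged. An unadjusted p under 0.05 was reached over both tissues by 641 genes (3.87%), in ileum by 252, in colon by 385 and for the difference between tissues by 169. DESeq2 called 4, 2, 1 and 1 genes and limma-voom 1, 1, 0 and 0, with 0 of the 8 among them. For Slc16a9 over both tissues DESeq2 gave a log2 fold change of 1.25 but no p-value, so it could not be called there. Of the 8 genes, edgeR gave an unadjusted p under 0.05 to 1 over both tissues (Acads), 2 in ileum (Acads and Slc16a9) and 0 in colon. The direction of the change was up in KO mice for 6 of the 8 genes and down for Acat1 and Slc5a8, in each tissue, with a median log2 fold change over both tissues of 0.16 beside 0.00 over all genes.

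Acads had the smallest unadjusted p of the 8 genes. Every KO library exceeded every control library of its tissue, at 79.6 to 99.7 against 62.5 to 74.4 CPM in ileum and 204 to 211 against 169 to 197 CPM in colon. Over both tissues the difference was 1.21-fold (log2 fold change 0.27, SE 0.09, edgeR adjusted p = 0.998). The two-sided exact permutation test within tissues gave p = 0.005, the smallest that its 400 arrangements allow, and groups separated in the same direction in both tissues for 0.411% of all genes. This p reuses the libraries of the edgeR test and is not adjusted for choosing Acads from the 8 genes. By tissue the log2 fold change was 0.38 in ileum (SE 0.12) and 0.17 in colon (SE 0.12), and neither passed after adjustment.

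In colon, Bdh1 and Slc16a9 also did not overlap between genotypes, with KO libraries the higher. Bdh1 stood at 110 ± 8.35 against 122.6 ± 5.40 CPM (SD, n = 3) and Slc16a9 at 30.0 ± 2.78 against 39.2 ± 1.99 CPM, with exact permutation p = 0.1 each, the smallest that 3 against 3 allows. Groups did not overlap in colon for 12.8% of all genes and in ileum for 3.70%, so 3 of the 8 genes in colon and 1 in ileum is to be read against those shares. The edgeR log2 fold changes in colon were 0.16 (SE 0.17) for Bdh1 and 0.39 (SE 0.58) for Slc16a9, far from the threshold.

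For the other genes the intervals say how large a change these libraries could hold. Over both tissues the 95% interval of KO over control was 0.86 to 1.29-fold for Slc16a1, 0.87 to 1.37-fold for Cpt1a, 0.77 to 1.08-fold for Acat1 and 0.61 to 1.20-fold for Slc5a8. That of Pdk4 was wide, 0.60 to 2.26-fold, as its levels varied among mice of one group.

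**Figure D4:**
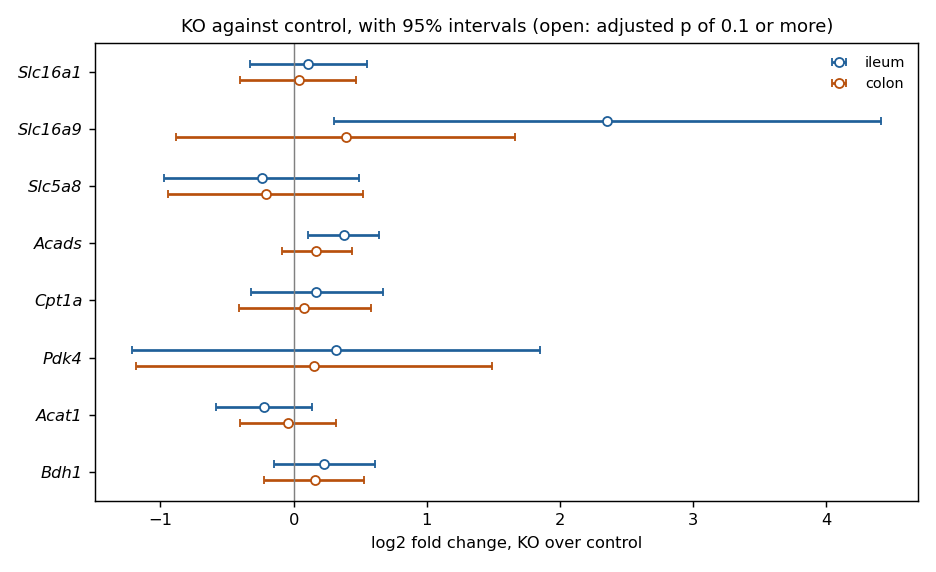
Log2 fold change of KO over control for the 8 genes (x axis) in ileum and in colon, with 95% intervals from edgeR and open points for adjusted p of 0.1 or more. All 16 points are open, the intervals of Acads and Slc16a9 in ileum lie to the right of 0, and those of Pdk4 and of Slc16a9 are the widest.

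Slc16a9 in ileum gave the largest fitted genotype effect of the 8 genes, a log2 fold change of 2.35 (SE 0.94, edgeR adjusted p = 1), and it rested on 1 library. Ileum KO replicate 2 held 66 of the 78 ileal KO counts, and without it the log2 fold change was 0.51. The same library had 2632 CPM of Car1, a carbonic anhydrase abundant in colonocytes, against 3.40 to 144 CPM in the other ileal libraries and 14884 to 27124 CPM in colon. It had 67.3 CPM of the colonic water channel Aqp8, against 0 to 0.358 CPM in the other ileal libraries and 20.5 to 190.5 CPM in colon. In this library Aqp8 was thus within the colonic range and Car1 below it. These are 2 of the 4 colonocyte markers, and most of the 3094 CPM sum in this library was Car1. Car4 and Slc26a3, the remaining markers, were together no higher in it than in ileum control replicate 2. That control library had a sum of at least 492.9 CPM, with 13.8 CPM of Car1. The ileal markers of ileum KO replicate 2 were those of ileum, with 5467 CPM of Fabp6 against 5.76 to 26.8 CPM in colon. It was the ileal library with the highest Slc16a9, Pdk4 and Slc16a1, 3 of the 8 genes, while it was the highest ileal library for 8.33% of all genes and for 17.9% of the 2224 genes that were higher in every colonic than in every ileal library. Without it, Pdk4 in ileum changed from a log2 fold change of 0.32 to -0.68, and the difference between tissues in the genotype effect of Slc16a9 changed from -1.96 to -0.12. The part of these colonocyte transcripts in the ileal values was not tested.

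**Figure D5:**
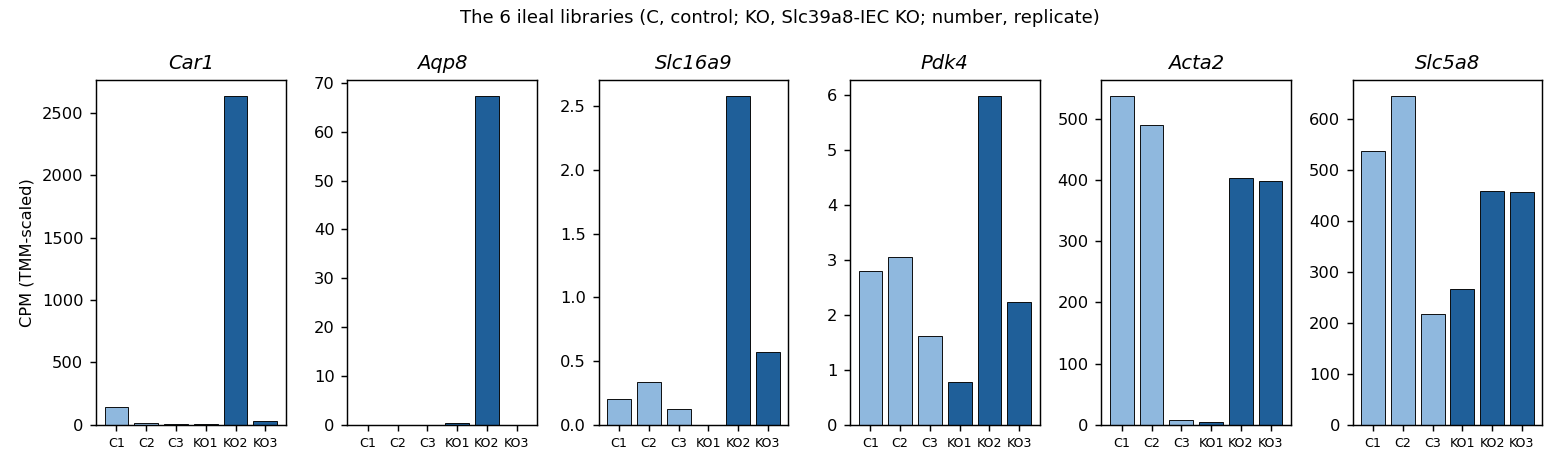
Level in CPM (bars from 0) of Car1, Aqp8, Slc16a9, Pdk4, Acta2 and Slc5a8 in the 6 ileal libraries, C for control and KO for Slc39a8-IEC KO mice, numbered by replicate. KO2 has the highest bar for the first 4 genes, and C3 and KO1 have the lowest bars for Acta2 (7.14 and 4.89 CPM) and for Slc5a8 (217 and 266 CPM).

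Genes with the most similar pattern over the 12 libraries were named by the root mean square difference of log2 CPM, each gene centred on its own mean, among 16558 genes. Bdh1 was nearest to Eci1, an enoyl-CoA isomerase of beta-oxidation (0.07), and to Naa40 (0.10), and Acat1 to Zfp846 and Trmt2b (both 0.08). Slc5a8 was nearest to Gsdmd (0.11) and Muc13 (0.14), Acads to Cln3 (0.14) and Vwa8 (0.15), Cpt1a to Entpd5 (0.17) and Wdr60 (0.18) and Slc16a1 to Mrps6 (0.18) and Txnip (0.20). The 2 genes with the widest range had looser neighbours, Foxd2os (0.41) and Car2 (0.46) for Slc16a9 and Akr1b8 (0.56) and B3galt2 (0.57) for Pdk4. Among the 8 genes themselves, Cpt1a and Slc16a1 were the closest pair (0.23), followed by Acads with each of them (0.27 both), and Slc16a9 and Slc5a8 were the farthest apart (3.83). These distances mostly reflect the step between the tissues and describe 12 libraries.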

How the data were processed

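The 12 RNA-seq libraries, 3 mice in each of the 4 tissue-by-genotype groups, were grouped by the sample labels. The authors aligned reads to mm10 with STAR and deposited 1 table of expected counts, estimated and not normalized, of which 93.7% were within 0.005 of a whole number. Per the study's Reporting Summary, reads that mapped to 1 place were kept, UMI-tools took out duplicates and FeatureCounts did the counting, which gives whole counts, whereas the deposited values are estimates. Which tool made these estimates, how it split reads of similar genes and its strand setting are therefore not known here. Spike-in rows (92, all at 0) were left out. Other experiments of the study were not analysed here.

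Counts were rounded. edgeR 4.0.16 in R 4.3.3 (filterByExpr, TMM factors, quasi-likelihood test) tested 16558 genes in all 12 libraries. Genotype over both tissues had tissue as a term, and all other comparisons came from a model of the 4 groups. A gene was called when its p, adjusted by the Benjamini-Hochberg method, was under 0.1 as in the study, and adjusted p-values are edgeR's unless another tool is named. Exact permutation tests were two-sided, on log2 of CPM plus 0.5. The prior count of log2 CPM was 2. Intervals are 95%, and those on counts cover counting error only. Depth, from 16749138 to 27903083 counts, limits low values such as ileal Slc16a9. As nothing says how the mice of a group are related, p-values measure the spread between these samples.

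The named genes are the 8 genes, genes of the pathway and marker lists, and the 2 genes nearest to each of the 8. Every list is given by its counts and only some of its genes by name, and a few pathway genes are not reported here and were left out of the counts. These genes and lists were chosen with earlier results of these data known. Alternatives were DESeq2 1.42.0, limma-voom (limma 3.58.1), other scaling, filters and thresholds, the replicate number as a block, the 6 libraries of a comparison alone, each library left out, and a fit without the 2 ileal libraries that lack muscle transcripts. The steps were tested on counts simulated with known changes. Between genotypes over both tissues, edgeR called 47% of the 2-fold and 87% of the 4-fold changes, and 11.3% of its calls were false. Between colon and ileum in control mice it called 34% and 71%, and 6.25% of its calls were false. Genes were matched by Ensembl identifier without its version, because 2 of the 8 (Bdh1 and Cpt1a) carry another version than in GENCODE M21, whose coordinates (GRCm38) are given. Figures used matplotlib 3.10.9.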

Additional observations from a re-analysis of the deposited data

How the results depend on the processing

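Of 352 recomputed values of the 8 genes between colon and ileum, 332 kept their direction and call and 20 kept the direction but lost the call, 18 of them for Bdh1 and 2 for Acat1. Of 687 recomputed genotype values, 0 gained a call and 36 changed sign, and that of Slc16a9 over both tissues by DESeq2 had no p-value. Members called between the tissues numbered 6 to 8 in control and 7 to 8 in KO mice with 1 library left out, 8 and 8 without the 2 ileal libraries with few muscle transcripts, and 7 and 7 at an adjusted p under 0.05. The pathway genes called numbered 35 to 46 and 34 to 50 with 1 library left out, and all genes called 4655 to 6446 and 4429 to 7166.

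Genes called between genotypes over both tissues numbered 0, and 4 by DESeq2, 1 by limma-voom, 5 without the 2 ileal libraries with few muscle transcripts and 0 to 1 with 1 library left out. In ileum these were 2, 1, 3 and 0 to 1, in colon DESeq2 called 1 and the 6 colonic libraries alone gave 1, and DESeq2 called 1 for the difference between the tissues. The cause was not tested.

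Scaling by library size alone moved the median log2 fold change of all genes between the tissues to 0.238 in control and 0.285 in KO mice (upper quartile factors, 0.116 and 0.145), and the calls in control mice from 2689 higher and 3251 lower to 4156 and 2102 (upper quartile, 3373 and 2741) and in KO mice from 2837 and 3312 to 4637 and 1908 (upper quartile, 3678 and 2634). Under it the genotype effect of Acat1 in colon was 0.06, and the difference between tissues was 0.01 for Bdh1 and 0.01 for Slc16a1. With limma-voom that difference was -0.04 for Slc5a8 and 0.18 for Pdk4.

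Whether the replicate numbers pair ileal with colonic libraries could not be told. Same-numbered ileal and colonic libraries had correlations of -0.05, 0.165 and -0.08 in control and 0.19, 0.05 and 0.25 in KO mice. Same-numbered ileal libraries of the 2 genotypes, which are from different mice, had correlations of -0.55, 0.40 and -0.69. Over all pairs of groups, most of them across genotypes, a library correlated best with its own number in 13 of 36 comparisons. With the replicate number as a block, 5333 genes were called between the tissues in control and 5558 in KO mice (5940 and 6149 without it), 0 between genotypes, Bdh1 lost its call in KO mice (0.42) and Pdk4 in colon was -0.08.

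With 1 library left out, the genotype effect ran from -0.13 to 0.45 for Pdk4 over both tissues. In ileum it ran from -0.03 to 0.27 for Slc16a1, -0.59 to 0.06 for Slc5a8, -0.02 to 0.53 for Cpt1a and -0.68 to 0.75 for Pdk4. In colon it ran from -0.11 to 0.05 for Acat1, -0.10 to 0.15 for Slc16a1, -0.04 to 0.19 for Cpt1a and -0.35 to 0.57 for Pdk4. The difference between tissues ran from -0.30 to 0.09 for Bdh1, -0.22 to 0.06 for Slc16a1, -0.27 to 0.39 for Slc5a8, -0.44 to 0.10 for Cpt1a and -0.66 to 0.83 for Pdk4.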
